A study of Mus musculus with 6 samples.

Results

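Transcripts of 30 genes that make, take up, store and export cholesterol were compared between livers of Balb/cBy and Balb/c mice. The list was drawn up from the pathway and covers the mevalonate steps, the steps after squalene, the control of the transcription factor SREBP2, uptake with intracellular transport, and efflux with storage. Of these genes, 27 were measured, among 22180 genes in all. A gene counted as measured where a probe set of the array carried its symbol and no other. Acat2 and Soat2 had no such probe set, and the probe set of Idi1 also carried the symbol of a second gene. These 3 genes have no value here. No measured gene of the list passed the test for a difference between the strains. For 1 of them, Sqle, the strain values did not overlap, as for 7.83% of all genes. The largest movements lay between mice of the same strain, and many of the genes shared them. Within Balb/cBy, 24 of 27 had their highest value in replicate 2 and 21 their lowest in replicate 1. The shares were 35.9% and 35.2% over all genes, and 46.9% and 51.6% over genes with a mean log2 signal of 8 or more.

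Liver RNA of male mice was read on 6 arrays, 3 for Balb/c and 3 for Balb/cBy. All mice were 20 weeks old, and for 12 weeks, from 8 weeks of age, fat had supplied 58% of the energy in their food. The labels call the arrays of a strain biological replicates, without saying whether mice shared a litter or day, and give no genotype beyond the strain name. Balb/cBy is a substrain of the albino Balb/c line that is known to carry a deletion in Acads, a mitochondrial fatty acid dehydrogenase. No group on another diet was analysed, so the values do not bear on the response to the diet.

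Liver cells build cholesterol from acetyl-CoA through mevalonate and squalene, and they also take it up from lipoproteins. When sterols run low in the membrane of the endoplasmic reticulum, Scap carries SREBP2, the product of Srebf2, to the Golgi apparatus. SREBP2 is cut there, and its released part switches on most enzymes of the pathway. The Insig proteins hold Scap back when sterols are plentiful. Surplus cholesterol is esterified or leaves the cell, into bile through the paired transporter of Abcg5 and Abcg8 and to lipoproteins in blood through Abca1, genes that oxysterols switch on through LXR receptors.

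Values are log2 signals after RMA, a method that corrects background, evens out the arrays and summarises the probes of a set. A step of 1 is thus a doubling, and levels of different genes cannot be set against each other. Array medians lay between 7.66 and 7.74. The 8 hepatocyte markers averaged 12.7 to 12.9 on every array. The smallest estimated array weight was 0.467, for Balb/cBy replicate 1, followed by 0.631 for replicate 3 of Balb/c. In bulk liver, fewer cells of a type and less RNA per cell cannot be told apart.

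Differences are Balb/cBy minus Balb/c. They were fitted with limma over all genes, and p-values were adjusted by the Benjamini-Hochberg method. Of the 27 measured members 0 passed an adjusted p of 0.05, where 0% of all genes did, and limma gave each member an adjusted p of 0.999. At an unadjusted p under 0.05 there were 0 members, against 3.76% of all genes (2.59% higher and 1.16% lower in Balb/cBy), and the ordinary test without moderation gave 0 as well. The strains did not overlap for 1 member, Sqle, against 7.83% of all genes (4.32% higher and 3.51% lower). The difference was above 0 for 16 members and below 0 for 11, with a median of 0.05. Over all genes 49.1% lay above 0 and the median was -0.003. All 27 members had a mean of 8 or more. Of the 11396 genes at that level, 6444 lay above 0, with a median of 0.02. With a repeated quantile normalization the median of the members was -0.02. Leaving out Balb/cBy replicate 1 gave 0.18, and leaving out its replicate 2 gave -0.12. The 95% intervals from limma were wide: the narrowest, for Scap, ran from -0.30 to 0.23 and the widest, for Abcg8, from -1.30 to 0.57.

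**Figure D1:**
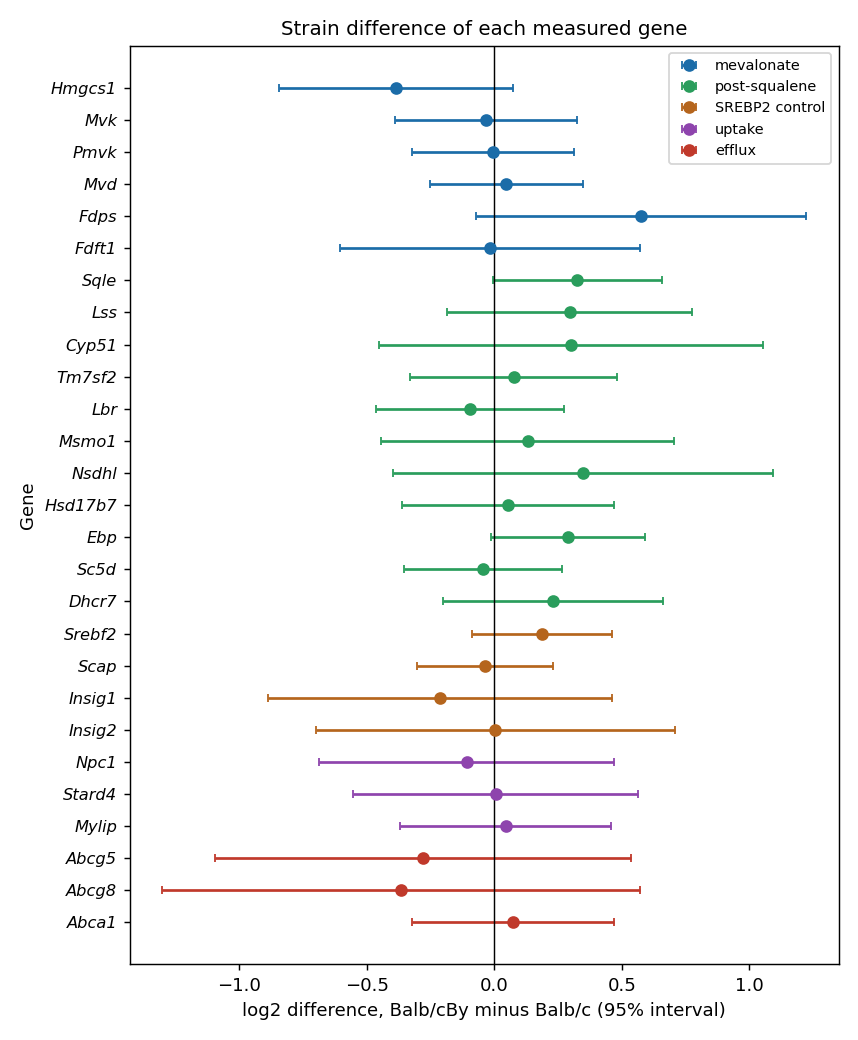
Log2 difference, Balb/cBy minus Balb/c, of each of the 27 measured genes (points) with its 95% interval from limma (bars), coloured by step of the pathway. Every interval holds 0, and Fdps at 0.58 and Hmgcs1 at -0.39 lie furthest from it on either side.

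In the mevalonate steps 2 of 6 measured enzymes lay above 0 and 4 below, with a median difference of -0.01 (0.007 with recentred arrays). Fdps, which makes farnesyl diphosphate, had the largest difference of the list. It stood at 10.35, 9.99 and 9.20 in Balb/c replicates 1, 2 and 3 and at 10.21, 10.79 and 10.27 in those of Balb/cBy. The strains overlapped, since Balb/c replicate 1 lay above Balb/cBy replicates 1 and 3. The difference was 0.58 (SE 0.28, 95% interval -0.07 to 1.22), or 1.49-fold, and 0.25 without Balb/c replicate 3, the lowest array. Hmgcs1, which forms the precursor of mevalonate, lay in the other direction. Its Balb/c values were 9.85, 10.11 and 9.66, and those of Balb/cBy 9.25, 9.93 and 9.27. Here Balb/cBy replicates 1 and 3 were below every Balb/c array, while replicate 2 was above Balb/c replicates 1 and 3. The difference was -0.39 (SE 0.20, 95% interval -0.84 to 0.07), and -0.61 without Balb/cBy replicate 2. Hmgcs1 and Fdps thus had opposite signs within 1 branch, and neither difference passed the limma test. The mevalonate kinase Mvk (-0.03), the phosphomevalonate kinase Pmvk (-0.004), the decarboxylase Mvd (0.05) and the squalene synthase Fdft1 (-0.02) had differences smaller than their SE.

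Hmgcs1 is a well-known target of SREBP2. The stretch before its start is shown because it alone, among the members searched, held the letters of the classical sterol regulatory element. The 250 bases before the start lie at chr13:119690101-119690350 (RefSeq, GRCm38.p6, plus strand). Capitals mark matches, on either strand, to TCACNCCAC (sterol element), CCAAT (the box bound by NF-Y) and GGGCGG (a box bound by Sp1), and no matches overlapped:
Hmgcs1: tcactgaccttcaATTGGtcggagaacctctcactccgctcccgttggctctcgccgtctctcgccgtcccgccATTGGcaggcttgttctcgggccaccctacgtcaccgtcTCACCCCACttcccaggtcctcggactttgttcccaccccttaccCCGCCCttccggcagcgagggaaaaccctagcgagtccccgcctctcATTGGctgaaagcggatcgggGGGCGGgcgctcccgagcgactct
The RefSeq promoter table, with 300 bases around each start (250 before it), held 24 of the 30 members with 31 starts. The sterol element letters occurred at 1 of these starts, that of Hmgcs1, and in 1.24% of all 32851 promoters. The CCAAT letters occurred at 21 of the 31 starts (37.4% of all promoters) and GGGCGG at 24 (35.7%). A match of letters is a description and no evidence of binding, and sterol elements with other letters were not searched. Fdps, Fdft1, Sqle, Npc1, Stard4 and Soat2 had no promoter entry, so their starts were not searched.

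After squalene, 9 of 11 measured enzymes lay above 0 and 2 below, with a median difference of 0.23. Without Balb/cBy replicate 2 that median was -0.03. Sqle, the squalene epoxidase, stood at 7.74, 7.95 and 7.87 in Balb/c and at 8.03, 8.49 and 8.01 in Balb/cBy. All 3 Balb/cBy arrays were above all 3 Balb/c arrays, the lowest at 8.01 against a highest Balb/c value of 7.95. This also held under the alternatives that rescaled the arrays. Leaving out an array cannot make separate groups overlap, so those settings could not test it. The difference was 0.33 (SE 0.14, 95% interval -0.01 to 0.66, limma adjusted p = 0.999), or 1.25-fold, and 0.17 without Balb/cBy replicate 2. With 3 arrays a strain, 0.1 is the smallest p that an exact two-sided permutation test allows.

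Nsdhl, which takes part in removing the methyl groups of the early sterols, had the largest difference of these steps. Balb/c arrays read 9.45, 8.53 and 8.74, and Balb/cBy arrays 8.80, 9.94 and 9.01. Balb/c replicate 1 and Balb/cBy replicate 2 were high, the other arrays lay between 8.53 and 9.01, and the groups overlapped (difference 0.35, SE 0.32). Without Balb/cBy replicate 2 the difference was 0.0043, and without replicate 2 of Balb/c it was 0.16. Ebp, the sterol isomerase, read 11.22, 10.97 and 10.82 in Balb/c and 11.25, 11.46 and 11.17 in Balb/cBy. It overlapped through Balb/cBy replicate 3 alone (difference 0.29, SE 0.13). The lanosterol synthase Lss (0.30), the lanosterol demethylase Cyp51 (0.30), the last enzyme Dhcr7 (0.23) and the methylsterol oxidase Msmo1 (0.13) were also above 0. Their SE lay between 0.19 and 0.33. Without Balb/cBy replicate 2, Lss differed by 0.091 and Dhcr7 by 0.077, and Cyp51 and Msmo1 were below 0 (-0.12 and -0.16). The sterol reductase Tm7sf2 (0.08) and the ketoreductase Hsd17b7 (0.05) were close to 0. So were the desaturase Sc5d (-0.04) and Lbr (-0.09), a receptor of the nuclear lamina with the same reductase activity as Tm7sf2.

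The widest swings of these enzymes lay within Balb/cBy. Cyp51, chosen after its values were seen, stood at 8.19, 7.86 and 7.72 in Balb/c and at 7.63, 9.06 and 7.98 in Balb/cBy. Its value in Balb/cBy replicate 2 was 2.70 times that in replicate 1, and these 2 arrays were the highest and the lowest of all 6. Msmo1 had the same order, with 9.19, 8.89 and 8.75 in Balb/c and 8.60, 9.66 and 8.97 in Balb/cBy. Of the measured enzymes Msmo1 was closest to the mean of the others across the 6 arrays, with a Pearson correlation of 0.98 given as a description, and Sc5d was furthest, at 0.17. The bases before the start of Msmo1, at chr8:64733579-64733828 (GRCm38.p6, minus strand, written along the gene), held 3 CCAAT and 2 GGGCGG matches, all in the orientation of the gene:
Msmo1: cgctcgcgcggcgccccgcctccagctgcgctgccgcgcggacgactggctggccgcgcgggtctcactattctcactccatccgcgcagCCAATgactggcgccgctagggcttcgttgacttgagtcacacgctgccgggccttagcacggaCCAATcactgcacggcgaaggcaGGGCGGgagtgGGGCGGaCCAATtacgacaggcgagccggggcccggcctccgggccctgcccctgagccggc

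**Figure D2:**
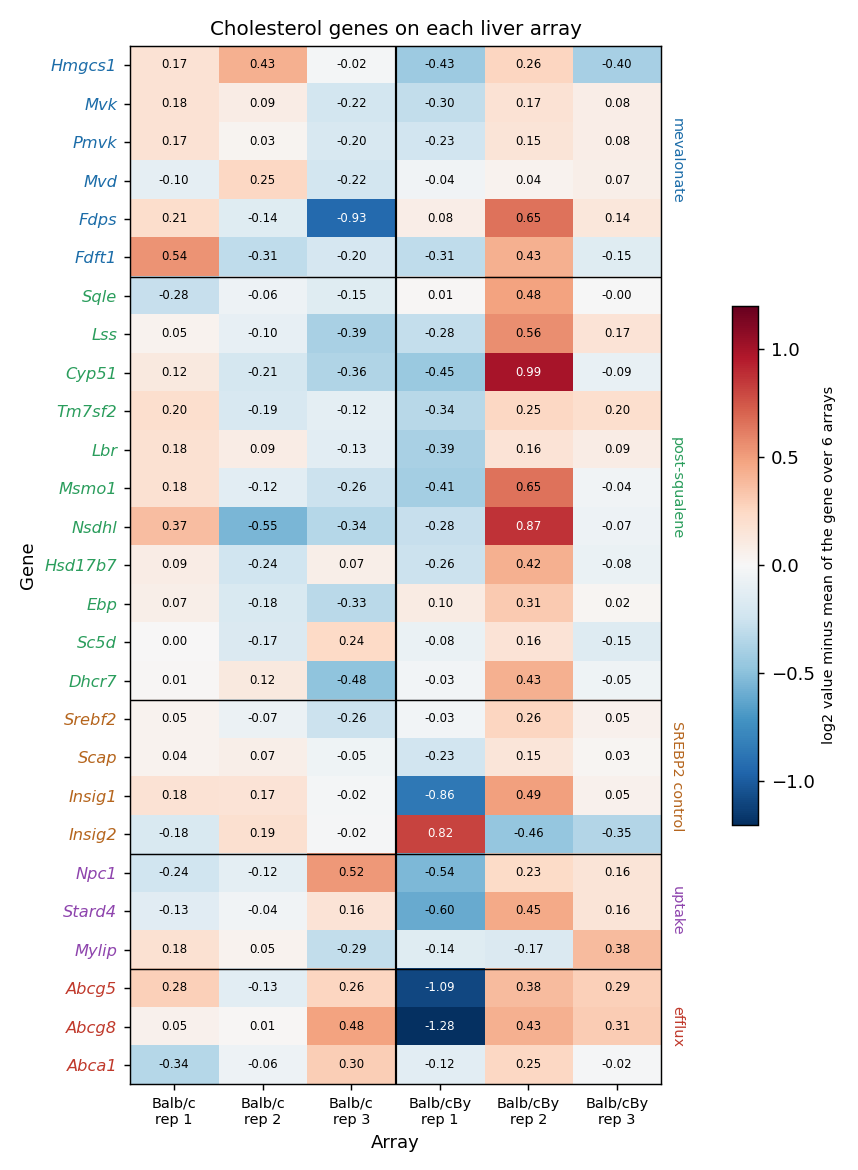
Log2 value of each gene minus its mean over the 6 arrays (colour and printed number; rows are genes grouped by step, columns are arrays). Most rows are red in Balb/cBy replicate 2 and blue in Balb/cBy replicate 1, and Insig2 has the opposite colours.

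The genes that control SREBP2 had a median difference of -0.02 (0.001 with recentred arrays), with 2 of 4 above 0. Srebf2 itself stood at 9.58, 9.47 and 9.28 in Balb/c and at 9.51, 9.80 and 9.59 in Balb/cBy. Replicates 1 of both strains fell inside the range of the other group (difference 0.19, SE 0.12, 95% interval -0.09 to 0.46). Scap, the escort of SREBP2, had a difference of -0.04 (SE 0.12), and a second, dimmer probe set of it gave 0.002.

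The anchors Insig1 and Insig2 had opposite extremes among the mice. Insig1, itself a target of SREBP2, read 11.17, 11.16 and 10.97 in Balb/c and 10.13, 11.48 and 11.04 in Balb/cBy. Insig2, whose main transcript in liver is known to be lowered by insulin, read 10.70, 11.07 and 10.86 in Balb/c and 11.69, 10.42 and 10.53 in Balb/cBy. Balb/cBy replicate 1 was thus the lowest of 6 for Insig1 and the highest of 6 for Insig2, and replicate 2 was the reverse. Between these 2 mice Insig1 was 2.54-fold higher in replicate 2, and the fold of Insig2 was 0.413. The strain differences were -0.21 for Insig1 (SE 0.29) and 0.005 for Insig2 (SE 0.31). Without Balb/cBy replicate 1 they were 0.16 and -0.40, and Insig2 then no longer overlapped between the strains (limma adjusted p = 0.570, between 0.570 and 1 over the alternatives). In that setting 26.9% of all genes did not overlap, 14.1% with Balb/cBy lower.

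The bases before both starts are shown because these genes had opposite extremes. They are at chr5:28071162-28071411 (plus strand) for Insig1 and at chr1:121332590-121332839 (minus strand, written along the gene) for Insig2, in GRCm38.p6. Insig2 has 3 annotated starts, of which the one furthest upstream is printed, and which transcripts its probe set reads is not given in the sources used here:
Insig1: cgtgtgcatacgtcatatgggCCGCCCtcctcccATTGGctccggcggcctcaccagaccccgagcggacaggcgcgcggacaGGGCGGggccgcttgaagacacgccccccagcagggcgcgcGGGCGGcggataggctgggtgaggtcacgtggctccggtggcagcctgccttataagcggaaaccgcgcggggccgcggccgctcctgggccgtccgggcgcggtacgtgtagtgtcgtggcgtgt
Insig2: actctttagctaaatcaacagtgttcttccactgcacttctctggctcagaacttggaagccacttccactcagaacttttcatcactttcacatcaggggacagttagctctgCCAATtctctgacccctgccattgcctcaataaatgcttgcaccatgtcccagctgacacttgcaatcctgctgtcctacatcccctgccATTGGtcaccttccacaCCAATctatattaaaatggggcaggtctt
In these windows Insig1 held 1 CCAAT and 3 GGGCGG matches, and Insig2 held 3 CCAAT and 0 GGGCGG matches. Neither held the letters of the sterol element. The starts of Insig2 that are not printed each held a GGGCGG match, at 0 and 122 bases before the start.

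**Figure D3:**
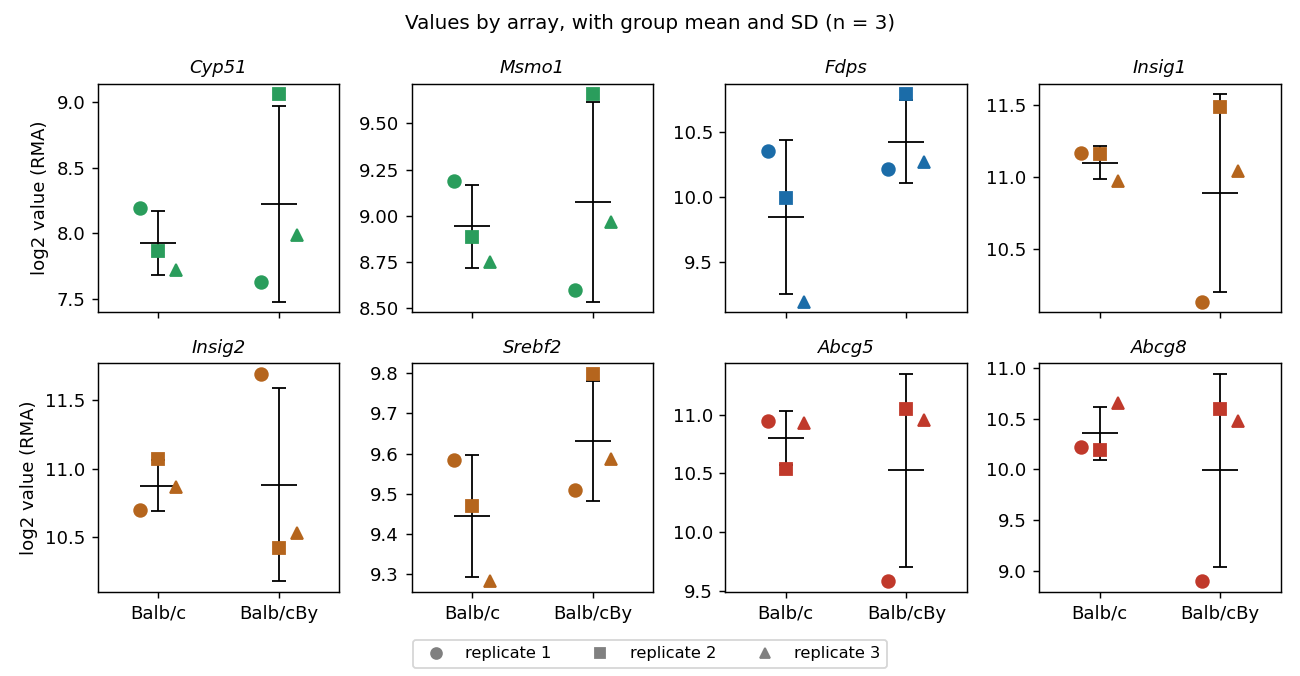
Log2 values of 8 genes on each array (circle, square and triangle for replicates 1, 2 and 3), with the mean and SD of each strain in black (n = 3). In Balb/cBy, replicate 1 is the lowest for Insig1, Abcg5 and Abcg8 and the highest for Insig2, and the vertical axes do not start at 0.

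Genes of uptake and intracellular transport had differences close to 0, with a median of 0.01 (-0.063 with a repeated quantile normalization). Npc1, which moves cholesterol out of lysosomes, stood at 10.70, 10.82 and 11.46 in Balb/c and at 10.40, 11.17 and 11.10 in Balb/cBy (difference -0.11, SE 0.25). Balb/c replicate 3 was the highest and Balb/cBy replicate 1 the lowest, and a second, dimmer probe set of Npc1 gave a difference of -0.05. Stard4, a carrier of cholesterol between membranes and a target of SREBP2, read 8.60, 8.70 and 8.90 in Balb/c and 8.13, 9.19 and 8.89 in Balb/cBy. In Balb/cBy replicate 1 was below and replicate 2 above all Balb/c values, and the difference was 0.01 (SE 0.24). Mylip, an LXR target whose product marks lipoprotein receptors for breakdown, differed by 0.05 (SE 0.18). Its highest value was in Balb/cBy replicate 3, at 10.21.

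Among the efflux genes the bile transporter pair had the largest SD within strains of the list, 0.699 for Abcg8 and 0.605 for Abcg5. Abcg5 stood at 10.95, 10.54 and 10.93 in Balb/c and at 9.58, 11.05 and 10.95 in Balb/cBy. Abcg8 stood at 10.22, 10.19 and 10.66 in Balb/c and at 8.89, 10.60 and 10.48 in Balb/cBy. For both genes Balb/cBy replicate 1 was below the other 5 arrays, which lay between 10.54 and 11.05 for Abcg5 and between 10.19 and 10.66 for Abcg8. The strain differences were -0.28 (SE 0.36) and -0.36 (SE 0.41), and without that array they were 0.20 and 0.18. Abca1, which loads cholesterol onto apolipoproteins, had its lowest value of the 6 in Balb/c replicate 1. Within Balb/cBy its lowest value was in replicate 1, as for Abcg5 and Abcg8. Abca1 read 10.51, 10.78 and 11.14 in Balb/c and 10.72, 11.10 and 10.83 in Balb/cBy (difference 0.07, SE 0.17).

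Abcg5 and Abcg8 are transcribed away from each other. Their annotated starts enclose 109 bases at chr17:84683012-84683120 (GRCm38.p6, plus strand), shown because both genes shared their low array, with none of the 3 motifs in them:
Abcg5 to Abcg8: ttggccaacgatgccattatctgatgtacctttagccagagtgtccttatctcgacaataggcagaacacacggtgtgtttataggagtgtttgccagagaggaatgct

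The movement between arrays was broader than single genes. In Balb/cBy, 24 of 27 members (88.9%) had their highest value on replicate 2, where 35.9% of all genes did. Of the 11396 genes with a mean of 8 or more, a level that all 27 members had, 46.9% did. The exceptions were Mvd, Mylip and Insig2. On replicate 1, 21 members (77.8%) had the lowest value of their strain, against 35.2% of all genes and 51.6% of those with a mean of 8 or more. In Balb/c, 16 members had their highest value on replicate 1 (59.3%, against 28.8% of all genes and 34.7% of those with a mean of 8 or more). Their lowest value was on replicate 3 for 15 (55.6%, against 39.5% and 41.8%). With a repeated quantile normalization 23 members were highest on Balb/cBy replicate 2 and 17 lowest on replicate 1. With arrays recentred on their medians the counts were 24 and 26. The shares of all genes under these settings were not computed.

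**Figure D4:**
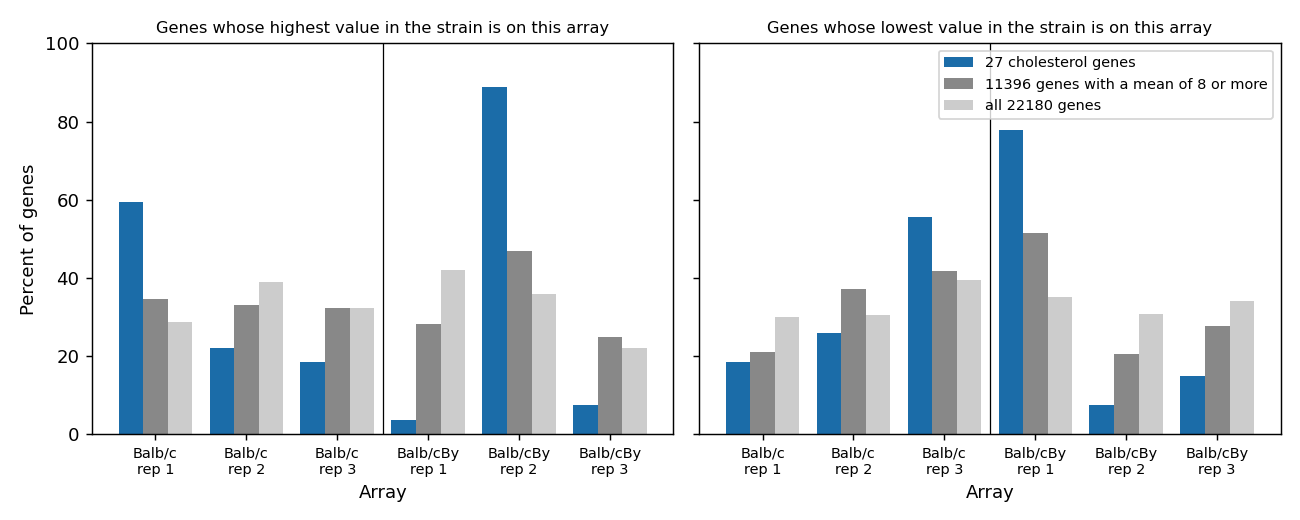
Share of genes (vertical axis, percent) whose highest (left) or lowest (right) value within the strain falls on each array, for the 27 measured members, the genes with a mean of 8 or more and all genes. Balb/cBy replicate 2 holds the highest value for 88.9% of the members, and replicate 1 the lowest for 77.8%. For genes with a mean of 8 or more the shares are 46.9% and 51.6%.

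The median deviation from the mean of each gene over 6 arrays was 0.31 for the members on Balb/cBy replicate 2 and -0.28 on replicate 1, against 0.06 and -0.03 for genes with a mean of 8 or more. For the 17 measured enzymes it was 0.42 and -0.28, and on Balb/c replicates 1, 2 and 3 it was 0.17, -0.12 and -0.22. All 11 enzymes after squalene had their highest Balb/cBy value on replicate 2, and 7 of them (63.6%) their lowest on replicate 1. The other 4 were lowest on replicate 3. Of the 6 enzymes of the mevalonate steps, 5 were highest on replicate 2 and 6 lowest on replicate 1. Of genes with a mean of 8 or more, 46.9% were highest on replicate 2 and 51.6% lowest on replicate 1. From replicate 1 to replicate 2 of Balb/cBy, the difference was above 0 for 25 of 27 members, with a median of 0.58. Over all genes 49% lay above 0. The share of genes with a mean of 8 or more was not computed. As a description, 284 of the 351 pairs of members had a Pearson correlation above 0 across the 6 arrays. The median was 0.47 over members, 0.60 over the enzymes and 0.008 over all pairs of genes. It was not computed over genes with a mean of 8 or more. Points of a pair share array, RNA and normalization. Insig2 was the member most opposed to the mean of the enzymes, at -0.70.

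The spread within strains was accordingly wide. The median SD within a strain was 0.30 for the members and 0.15 for genes with a mean of 8 or more, and 25 of 27 members were above the latter. For 10 members the highest and lowest of 6 arrays differed by more than 1. The range was wider in Balb/cBy than in Balb/c for 19 members. Neither count was computed for all genes, so they are not read as a trait of the members.

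Markers of other cells also differed between these arrays. All 7 macrophage markers were lowest on replicate 1 in Balb/cBy and lowest on replicate 3 in Balb/c, and their mean level lay between 9.45 and 10.30 in Balb/c and between 9.72 and 10.20 in Balb/cBy. Hepatocyte markers were lowest on Balb/cBy replicate 1 within their strain for 7 of 8, with a median deviation of -0.08. Over all genes 35.2% were lowest there within the strain, and 51.6% of those with a mean of 8 or more. On Balb/c replicate 3 the shares were 39.5% and 41.8%. The 5 measured lymphocyte markers (mean level 7.42 to 7.53 in Balb/c and 7.22 to 7.33 in Balb/cBy) were all lowest on Balb/cBy replicate 2. Within that strain 30.8% of all genes were lowest there, and 20.6% of those with a mean of 8 or more. Cd3g, Ms4a1 and Cd79a had means below 8, and the share of genes below that level was not computed. The 3 measured markers of exocrine pancreas were all highest on Balb/c replicate 3, where 32.4% of all genes had their highest Balb/c value. The groups did not overlap, with Balb/cBy higher, for 2 of 8 stellate cell and 2 of 6 neutrophil markers, where 4.32% of all genes did so. Balb/cBy was lower without overlap for 3 of the 5 lymphocyte markers, 1 of 6 endothelial markers (Kdr) and 1 of the 3 pancreas markers (Ctrb1), against 3.51% of all genes. The part of these marker and array differences in the values of the cholesterol genes was not tested.

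The wider pathway was read from further lists. Of 24 further genes of synthesis and SREBP control 21 were measured, 12 above 0 and 9 below, with a median of 0.02. Limma passed 0 of them after adjustment, and 2 had an unadjusted p under 0.05, where 3.76% of all genes did. Tmem97, a sterol-responsive membrane protein, stood at 10.85, 10.74 and 10.46 in Balb/c and at 10.78, 11.33 and 11.11 in Balb/cBy, a difference of 0.39 (SE 0.16). Pgrmc1, a haem-binding partner of sterol enzymes, stood at 12.72, 12.83 and 13.03 in Balb/c and at 12.66, 12.44 and 12.45 in Balb/cBy. Its groups did not overlap (difference -0.34, SE 0.12), the only such gene of the 21, against 7.83% of all genes. Rdh11, a retinol dehydrogenase, differed by 0.34 (SE 0.18). Srebf1, the related factor of fatty acid synthesis, had its lowest value in Balb/cBy replicate 1, at 9.65, against 10.35 and 10.44 in the other mice of its strain (difference -0.15, SE 0.22). Within Balb/cBy, 14 of the 21 genes (66.7%) were lowest on replicate 1 and 11 (52.4%) highest on replicate 2. The shares were 35.2% and 35.9% over all genes, and 51.6% and 46.9% over those with a mean of 8 or more. The 52.4% was near the last of these.

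Of 25 further genes of sterol uptake, transport and efflux 23 were measured, 15 above 0 and 8 below, with a median of 0.08. Limma passed 0 after adjustment, and 0 had an unadjusted p under 0.05. Cyp27a1, which makes an oxysterol on the way to bile acids, did not overlap between the strains, at 12.08, 12.07 and 12.12 in Balb/c and 12.15, 12.35 and 12.39 in Balb/cBy (difference 0.21, SE 0.10). Lcat, which esterifies cholesterol in plasma lipoproteins, did not overlap either (0.14, SE 0.09), which makes 2 of 23 against 7.83% of all genes. Gramd1b, a sterol carrier at membrane contacts, differed by 0.15 (SE 0.10). In this list 17 of 23 genes (73.9%) were lowest in Balb/cBy on replicate 1, against 35.2% of all genes. Of genes with a mean of 8 or more, 51.6% were. The 9 genes (39.1%) highest on replicate 2 were a share near the 35.9% of all genes and below the 46.9% of genes with a mean of 8 or more.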

How the data were processed

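Total liver RNA was extracted with Trizol, and 500 ng of it was labelled and hybridised on 1-colour Affymetrix arrays, per the labels' protocols. The authors made the deposited log2 values with RMA, per the submitters' processing notes. The range of the values shows the log2 scale. The version and annotation behind them were not given in the sources used here. Groups came from the sample titles. The platform annotation gave 1 symbol for 23521 of 41345 probe sets. Where a gene had several, the brightest by mean over the 6 arrays stood for the gene, giving 22180 genes, all of which were tested. Balb/cBy was compared with Balb/c with lmFit and eBayes (limma 3.58.1, R 4.3.3), without covariates, with Benjamini-Hochberg adjustment over all genes. The code was tested on simulated data. The number of arrays limits the precision.

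Per-array values were to be printed for members with an unadjusted p under 0.05 or without overlap, the largest difference of each step and Srebf2, Insig1, Insig2, Hmgcs1, Sqle, Idi1, Abcg5 and Abcg8. Of the other pathway lists the 3 smallest p, Tmem97 and Srebf1 were named. Promoters of enzymes with the sterol element letters were to be printed. Ebp, Cyp51, Msmo1, Stard4 and Abca1 and the sequences of Msmo1, Insig1, Insig2 and Abcg5 to Abcg8 were added after values were seen. Members and lists were chosen with earlier results of these data known. Alternatives were a replicate block, recentring, repeated quantile normalization, 2 filters, averaged probe sets, other variance models, array weights and leaving out each array.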

Additional observations from a re-analysis of the deposited data

How the results depend on the processing

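No member passed an adjusted p of 0.05 under any alternative run, the lowest being 0.57. Over all genes 12 passed with array weights, 3 without Balb/cBy replicate 1 and 2 without replicate 3 of Balb/c, and 0 in the other settings, so that leaving out an array gave 0 to 3. Members at an unadjusted p under 0.05 numbered 3 with the replicate block (Hmgcs1, Sqle and Fdps) and 2 with a repeated quantile normalization or with array weights (Hmgcs1 and Sqle). They numbered 1 with a trended and robust variance (Sqle) and 0 to 3 when an array was left out. The shares of all genes at that threshold were not computed under these settings, so the counts are not read as a result about the members. Members without overlap numbered 1 to 6 when an array was left out, 6 (22.2%) without Balb/cBy replicate 1, where 26.9% of all genes did not overlap, and 5 (18.5%) without Balb/c replicate 1, where 16.7% did not. The causes of these shifts were not tested. The labels do not say that equal replicate numbers pair the mice. Deviations from the strain means correlated at -0.32, -0.20 and -0.23 for numbers 1, 2 and 3 over all genes. Such correlations cannot show whether mice shared a litter or day. With the replicate block the differences were unchanged and 0 genes passed.

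The median over members ranged from -0.12 to 0.18 when an array was left out, and the median of the steps from -0.11 to 0.11 (mevalonate), -0.03 to 0.31 (after squalene), -0.06 to 0.12 (SREBP2 control), -0.22 to 0.14 (uptake) and -0.54 to 0.18 (efflux). With array weights the efflux median was 0.019 and the uptake median 0.16. The signs of 8 members held under every alternative run, those of Hmgcs1, Fdps, Sqle, Lss, Nsdhl, Ebp, Dhcr7 and Srebf2. The replicate block, the filters, the other variance models and, for these genes, averaged probe sets could not change a difference. Several of the 8 came close to 0 without 1 array. The lowest values were 0.0043 for Nsdhl and 0.091 for Lss (both without Balb/cBy replicate 2) and 0.049 for Dhcr7 (without Balb/c replicate 3). The signs of the other 19 turned without 1 array or another. Their differences then ranged from -0.15 to 0.11 for Mvk, from -0.10 to 0.11 for Pmvk, from -0.049 to 0.18 for Mvd, from -0.24 to 0.25 for Fdft1, from -0.12 to 0.60 for Cyp51, from -0.030 to 0.26 for Tm7sf2, from -0.20 to 0.077 for Lbr, from -0.16 to 0.37 for Msmo1, from -0.14 to 0.20 for Hsd17b7, from -0.14 to 0.064 for Sc5d, from -0.12 to 0.069 for Scap, from -0.51 to 0.16 for Insig1, from -0.40 to 0.24 for Insig2, from -0.25 to 0.14 for Npc1, from -0.22 to 0.31 for Stard4, from -0.13 to 0.15 for Mylip, from -0.54 to 0.20 for Abcg5, from -0.67 to 0.18 for Abcg8, from -0.079 to 0.24 for Abca1. A few signs turned under other settings. With array weights the difference was -0.0017 for Hsd17b7, -0.16 for Insig2, 0.16 for Npc1 and 0.019 for Abcg8. With a repeated quantile normalization it was -0.078 for Insig2, -0.063 for Stard4 and -0.018 for Mylip, and with recentred arrays it was 0.013 for Pmvk. Recentring shifted all genes by 0.02.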
